A study of Homo sapiens with 9 samples.

Results

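The mitochondrial ribosomal protein genes were taken as all protein-coding genes whose symbol is MRPL or MRPS followed by a number and that were assembled in at least 1 library, and 77 genes met this rule, of 15218 genes named in all. They comprised 49 MRPL and 28 MRPS symbols. By the place of the protein, 51 belong to the large subunit, with MRPS18A and MRPS30 among them despite their symbols, and 26 to the small subunit. By ancestry, 48 have a bacterial homolog and 29 belong to proteins added in the mitochondrial lineage.

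The RNA came from WM3248, a human melanoma cell line, and was poly-A selected and sequenced in 9 libraries. Cells received ARN22089 at 4 or 6 µM, or only the DMSO vehicle (0 µM), and were lysed after 24 h, with 3 libraries per dose. ARN22089 is a small molecule made to block the interaction of CDC42-family GTPases with their effectors. All groups are this 1 line. The labels do not state whether replicate libraries were separate cultures, and the p-values therefore cover library-to-library spread alone, part or all of which may be technical.

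The mitochondrial ribosome makes the few proteins that mitochondrial DNA encodes, all of them core subunits of the respiratory chain and ATP synthase. Its RNAs come from mitochondrial DNA, but each of its proteins is encoded in the nucleus, translated in the cytosol and imported. Its small subunit binds the mRNA and reads codons, and its large subunit joins the amino acids and is held at the inner membrane, where the new chains are inserted.

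Levels are given as summed FPKM, the fragments per kilobase of assembled transcript, relative to all mapped fragments of that library, added over the transcripts of a gene. FPKM is per length, so levels of different genes share a unit, but they also depend on the length of the assembled model, as described below. Differences are log2 differences of FPKM + 1 with their SE, from a limma fit over the 12414 genes that averaged 1 FPKM or more. All 77 genes entered it, and a call means an adjusted p (Benjamini-Hochberg over all genes tested) under 0.05. A second value is the mean FPKM over the exonic bases that most assemblies of a gene share, and it still divides by the length of each model. The depth in reads is unknown. Relative depth ran from 0.802 to 1.343 of the median library, and between 424 and 621 of the tested genes were listed at 0 in a library, most of them in replicate 1 at 0 µM. The 7 melanocyte markers were all present. Of the markers of other cell types, KRT5, KRT1, PTPRC, CD3E, VWF and CDH5 were not assembled, KRT14 and PECAM1 were at most 2.27 and 6.84 FPKM, and the 3 fibroblast markers together at most 31.2 FPKM. CD68 was listed at 0 in all libraries but replicate 3 at 4 µM, where it was at 142 FPKM. Its shared exonic bases, which transcripts named for other genes can also cover, held between 44 and 239 FPKM in each library.

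Promoter sequences are shown first because the genes share features there that the rule did not use. The RefSeq promoter table (GRCh38.p14, 250 bases before to 50 after the start) held 69 of the 77 genes, and MRPL2, MRPL10, MRPL13, MRPL15, MRPL21, MRPL23, MRPL35 and MRPS28 had no entry. The ETS core CCGGAAG, the element bound by GABPA, was present on either strand in 29 of the 69 (42.0%), against 10.6% of all 27305 promoters in the table and 20.2% of those of tested protein-coding genes. The YY1 core AAGATGGC was present in 20 (29.0%), against 3.01% and 5.72%. The core of NRF1, GCATGCGC, was in 6 (8.70%), against 3.29% and 5.84%. At least 1 of these 3 cores occurred in 42 of the 69 (60.9%), against 15.5% and 28.5%. An ETS and a YY1 core can share the letters AAG. The SP1 box GGGCGGG was in 33 (47.8%, against 32.7% and 54.4%), CCAAT in 20 (29.0%, against 35.7% and 37.6%) and TATAAA in 2 (2.90%, against 12% and 5.44%). These are matches of letters in a window, given with no test, and say nothing of binding.

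The 3 copies of the bacterial S18 protein and 2 other genes described below illustrate the range of these promoters. Each line gives the 150 bases before the start on the gene's strand, from RefSeq GRCh38.p14, and capitals mark an ETS, YY1 or NRF1 core on either strand. MRPS18A lies at chr6:43687792-43687941 (minus strand) and has 1 ETS core close to its start, whereas MRPS18B at chr6:30617690-30617839 (plus) and MRPS18C at chr4:83455908-83456057 (plus) each have an NRF1 core, at opposite ends of the window. MRPS26 at chr20:3045902-3046051 (plus) has an ETS core on the opposite strand, and MRPL52 at chr14:22829737-22829886 (plus) has 2 YY1 cores. These are only the cores within the printed bases, which are part of the longer window scored above. In that longer window MRPS18A and MRPS18B also have a YY1 core, and MRPS18C also has an ETS core. MRPL52 also has an NRF1 and an ETS core there, while MRPS26 has neither an NRF1 nor a YY1 core.
MRPS18A: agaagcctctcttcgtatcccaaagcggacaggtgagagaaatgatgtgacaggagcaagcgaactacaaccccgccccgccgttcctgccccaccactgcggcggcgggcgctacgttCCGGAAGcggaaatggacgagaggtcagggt
MRPS18B: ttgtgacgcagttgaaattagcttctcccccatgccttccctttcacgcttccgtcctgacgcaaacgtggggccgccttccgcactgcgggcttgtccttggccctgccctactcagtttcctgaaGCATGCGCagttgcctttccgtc
MRPS18C: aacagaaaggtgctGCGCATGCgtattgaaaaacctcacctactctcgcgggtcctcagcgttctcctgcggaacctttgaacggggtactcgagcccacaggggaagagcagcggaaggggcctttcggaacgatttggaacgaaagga
MRPS26: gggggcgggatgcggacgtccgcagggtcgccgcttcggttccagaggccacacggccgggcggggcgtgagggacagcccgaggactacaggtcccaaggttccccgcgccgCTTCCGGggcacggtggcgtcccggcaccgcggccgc
MRPL52: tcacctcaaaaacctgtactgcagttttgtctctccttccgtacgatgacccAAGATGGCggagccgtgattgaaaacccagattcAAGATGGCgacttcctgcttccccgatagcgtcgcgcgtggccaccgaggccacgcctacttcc

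Many of the genes also start back to back with a neighbour. For 18 of the 69 (26.1%) a protein-coding gene started on the opposite strand within 1000 bases upstream, against 10.2% of protein-coding genes in the table and 14% of those tested. MRPL46 and MRPS11, one in each subunit, start 320 bases apart and point away from each other. MRPL49 starts 49 bases from FAU, which encodes a cytosolic ribosomal protein, and MRPS12 starts 181 bases from SARS2, the mitochondrial seryl-tRNA synthetase. The shared start of MRPL46 and MRPS11 did not go with equal levels: MRPL46 averaged 26.7 FPKM and MRPS11 41.2 FPKM over the 9 libraries.

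Most of the genes were expressed above the median of all genes tested, with means from 6.91 FPKM (MRPS16) to 338 FPKM (MRPS6). The median of their means over the 9 libraries was 52.0 FPKM, against 11.4 FPKM over all genes tested, and 76 of the 77 lay above that second value. Means of 20 to 100 FPKM were found for 62 genes, 10 exceeded 100 FPKM and 5 were under 20 FPKM. The subunits had like medians, 50.4 FPKM for the large and 53.4 FPKM for the small, while the median was 58.1 FPKM for genes with a bacterial homolog and 40.0 FPKM for those without.

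**Figure D1:**
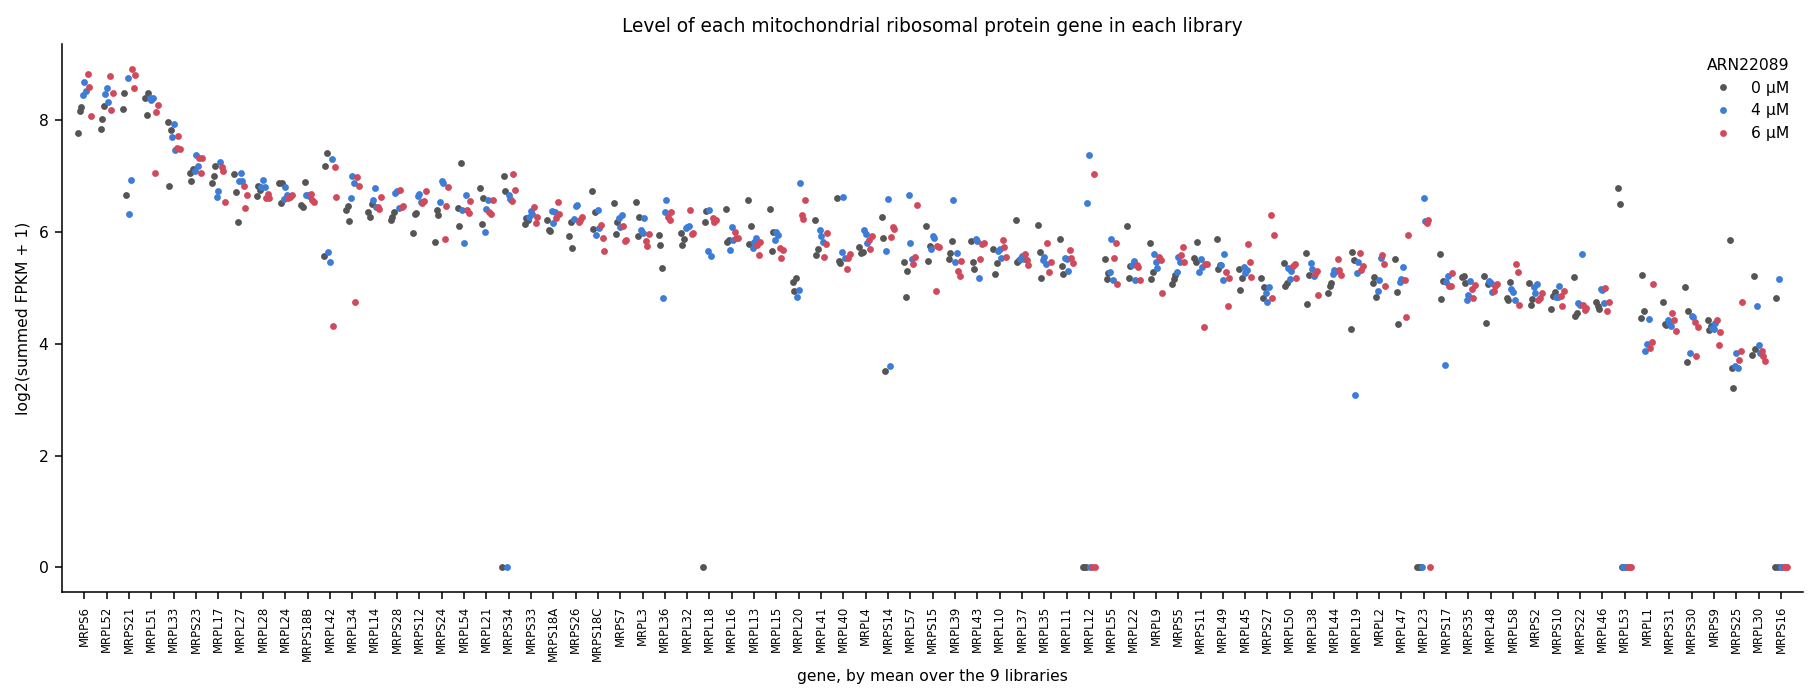
Level of each of the 77 genes (x axis, ordered by mean) as log2(summed FPKM + 1) (y axis) in each of the 9 libraries, 1 point per library, coloured by dose. All genes but MRPS16 have means between those of MRPS6 (338 FPKM) and MRPL30 (17.1 FPKM). Points at 0 occur in 6 genes, where no transcript of that name was assembled.

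The highest mean belonged to MRPS6, a small-subunit protein with a bacterial homolog, at 338 FPKM. MRPL52, a mitochondria-specific protein of the large subunit, followed at 326 FPKM, MRPS21 at 300 FPKM, MRPL51 at 299 FPKM and MRPL33 at 199 FPKM. MRPL51 (chr12:6491886-6493262, minus strand) was listed at 336, 272 and 360 FPKM at 0 µM, 335, 329 and 335 FPKM at 4 µM, and 133, 282 and 309 FPKM at 6 µM. MRPL33 (chr2:27771719-27779733, plus) was listed at 250, 113 and 227 FPKM at 0 µM, 208, 245 and 176 FPKM at 4 µM, and 181, 209 and 178 FPKM at 6 µM. These genes, MRPL33 included, are not separable in this order, since their ranges over libraries overlap.

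The lowest means were those of MRPS16 (6.91 FPKM), MRPL30 (17.1 FPKM), MRPS25 (18.1 FPKM), MRPS9 (18.5 FPKM) and MRPS30 (19.3 FPKM). MRPS9, whose bacterial counterpart touches the tRNA in the P site with its tail, had a coefficient of variation over libraries of 9.44% in summed FPKM. Its libraries held 20.4, 18 and 18.9 FPKM at 0 µM, 18.4, 18.3 and 19.6 FPKM at 4 µM, and 20.6, 14.8 and 17.5 FPKM at 6 µM. MRPL30 lay between 12 and 14.7 FPKM in 7 libraries and at 36.3 and 24.6 FPKM in replicate 2 at 0 µM and replicate 1 at 4 µM. MRPS25 lay between 8.24 and 26.0 FPKM in 8 libraries and at 57.0 FPKM in replicate 1 at 0 µM. MRPS30, one of the MRPS symbols that belongs to the large subunit, ranged from 11.8 to 31.5 FPKM, both within 0 µM. The coefficients of variation of MRPS16, MRPL30 and MRPS25 were 21.2%, 18.7% and 18.3% on the shared exonic bases, against 200%, 47.6% and 85.3% in summed FPKM, while that of MRPS30 was 32.5% against 32.2%. The order among these last 4 therefore does not exceed their spread.

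None of the 77 genes was called in limma's comparison of 4 with 0 µM, of 6 with 0 µM or of 6 with 4 µM. Over all genes tested, 11 (0.0886%) were called at 4 µM against 0 µM, 41 (0.330%) at 6 µM against 0 µM and 7 (0.0564%) at 6 µM against 4 µM. With the replicate number as a block these fell to 2, 4 and 1, and the count of mitochondrial ribosomal protein genes stayed at 0. Without an adjustment, 5 genes had a higher level at 4 than at 0 µM with a p under 0.05 (6.49%, where 6.26% of all genes did) and 1 a lower level (1.30%, against 4.58%). At 6 against 0 µM the counts were 5 higher (6.49%, against 8.10%) and 2 lower (2.60%, against 9.59%). At 6 against 4 µM they were 1 higher (1.30%, against 1.76%) and 0 lower (against 2.93%). These shares are near those of all genes or under them.

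The medians of the differences lay close to 0 at both doses. Against 0 µM, the median log2 difference over the 77 genes was 0.087 at 4 µM and -0.006 at 6 µM, where all genes tested gave -0.001 and -0.034. At 6 against 4 µM it was -0.041, where all genes gave -0.029. Of the 77 genes, 65 lay within 0.5 of 0 on the log2 scale at 4 against 0 µM (all genes, 78.3%) and 62 at 6 against 0 µM (all genes, 71.4%). Large-subunit and small-subunit genes had medians of 0.097 and 0.065 at 4 µM and of -0.008 and 0.008 at 6 µM. Genes with and without a bacterial homolog had medians of 0.10 and 0.085 at 4 µM and of 0.008 and -0.049 at 6 µM.

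**Figure D2:**
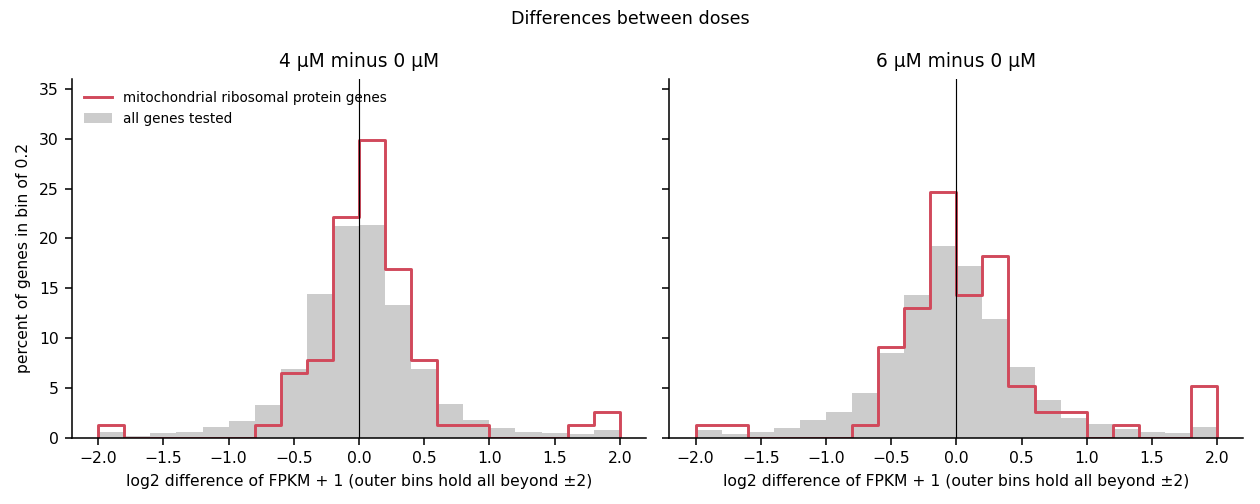
Distribution of log2 differences of FPKM + 1 at 4 minus 0 µM (left) and 6 minus 0 µM (right), as the percent of genes (y axis) in bins of 0.2, for all 12414 genes tested (grey bars) and the 77 mitochondrial ribosomal protein genes (red line). Both distributions centre near 0. The outermost bins also hold all larger differences, and the mitochondrial ribosomal protein genes in them were listed at 0 in some libraries.

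The 5 genes with a higher level at 4 µM by the unadjusted p were MRPS6, MRPS12, MRPS24, MRPS26 and MRPS28. The second value gave 8: MRPL44, MRPL52, MRPL57, MRPS18B, MRPS24, MRPS26, MRPS5 and MRPS6. MRPS26, a mitochondria-specific protein, had the smallest adjusted p of the 77 in summed FPKM. Its levels were 60.0, 71.9 and 51.8 FPKM at 0 µM, 74.5, 87.7 and 88.5 FPKM at 4 µM, and 71.8, 73.2 and 76.1 FPKM at 6 µM. The groups at 0 and 4 µM did not overlap, and those at 0 and 6 µM did, by 1 library. The log2 difference was 0.45 (SE 0.15, limma adjusted p = 0.389) at 4 µM and 0.28 (SE 0.15, adjusted p = 0.370) at 6 µM.

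MRPS12, the protein of the decoding centre in which mutations of the bacterial gene change the accuracy of codon reading, was lowest in the 3 vehicle libraries. The libraries gave 62.6, 79.1 and 80.5 FPKM at 0 µM, 98.7, 102 and 91.7 FPKM at 4 µM, and 90.3, 93.5 and 105 FPKM at 6 µM. The log2 difference was 0.40 (SE 0.14, limma adjusted p = 0.393) at 4 µM and 0.38 (SE 0.14, adjusted p = 0.220) at 6 µM. It was 0.14 and 0.38 on the shared exonic bases, and 0.06 and 0.29 from FPKM times model length.

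MRPS6 was listed at 218, 286 and 301 FPKM at 0 µM, 351, 412 and 369 FPKM at 4 µM, and 452, 384 and 268 FPKM at 6 µM. All libraries at 4 µM exceeded the vehicle libraries, and replicate 3 at 6 µM lay among them. MRPS24 (chr7:43866558-43869517, minus), whose bacterial counterpart lines the mRNA entry channel, was listed at 55.8, 82.7 and 77.8 FPKM at 0 µM, 91.9, 119 and 116 FPKM at 4 µM, and 58.1, 87.2 and 111 FPKM at 6 µM. MRPS28 averaged 76.9 ± 4.04 FPKM at 0 µM, 98.0 ± 11.1 FPKM at 4 µM and 93.7 ± 11.3 FPKM at 6 µM (SD, n = 3). The adjusted p at 4 µM was 0.452 for MRPS6, 0.452 for MRPS24 and 0.443 for MRPS28 with limma, so that none passed.

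At 6 µM the smallest adjusted p was that of MRPS5 (chr2:95085369-95122003, minus), whose bacterial counterpart helps to keep the reading of codons accurate. Summed FPKM stood at 32.6, 34.8 and 36.4 FPKM at 0 µM, 38.0, 45.9 and 43.1 FPKM at 4 µM, and 47.4, 52.5 and 43.2 FPKM at 6 µM. Every treated library exceeded every vehicle library. The log2 difference was 0.28 (SE 0.13, limma adjusted p = 0.484) at 4 µM and 0.45 (SE 0.13, adjusted p = 0.141) at 6 µM. MRPL44 (chr2:223950854-223967714, plus), a large-subunit protein with an RNase III-like fold, had the same order of groups. Levels came to 29.1, 31.6 and 33 FPKM at 0 µM, 37, 39.1 and 38.3 FPKM at 4 µM, and 44.7, 39.0 and 36.4 FPKM at 6 µM. Its log2 difference at 6 µM was 0.35 (SE 0.12, limma adjusted p = 0.209).

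MRPL52 was listed at 229, 260 and 304 FPKM at 0 µM, 352, 380 and 321 FPKM at 4 µM, and 442, 290 and 358 FPKM at 6 µM. The 4 µM libraries lay above the vehicle libraries, and replicate 2 at 6 µM lay among the vehicle libraries. Its log2 difference was 0.42 (SE 0.19, limma adjusted p = 0.471) at 4 µM and 0.45 (SE 0.19, adjusted p = 0.262) at 6 µM.

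**Figure D3:**
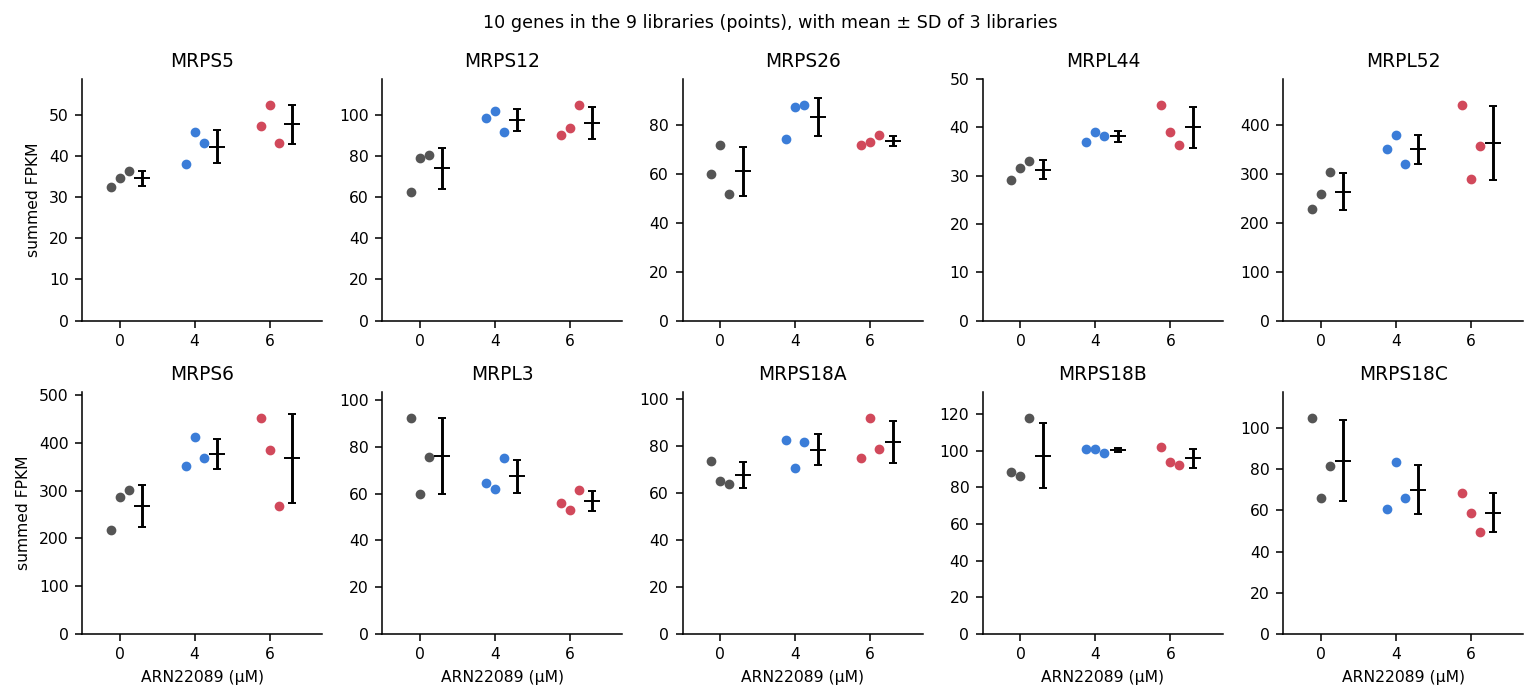
Summed FPKM (y axis, from 0) of 10 genes in the 3 libraries at each dose (x axis, µM), with points for libraries and a bar for mean ± SD. MRPS5, MRPS12 and MRPL44 are higher in all treated libraries than in the vehicle libraries, MRPS18A is higher at 6 µM, and MRPL3 and MRPS18C have their lowest means at 6 µM. None of these differences passed the adjusted threshold.

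Of the 10 genes with the smallest p at 6 µM, 5 had lower levels than at 0 µM: MRPL53, MRPL3, MRPL13, MRPL49 and MRPS18C. MRPL3 (chr3:131462212-131502971, minus), a core protein that reaches toward the peptidyl transferase centre, was listed at 92.4, 59.9 and 75.8 FPKM at 0 µM, 64.6, 62.1 and 75.4 FPKM at 4 µM, and 56.1, 52.8 and 61.4 FPKM at 6 µM. The ranges at 0 and 6 µM overlapped, and the log2 difference was -0.40 (SE 0.17, limma adjusted p = 0.284). MRPL13 averaged 72.1 ± 20.7, 55.1 ± 3.66 and 52.1 ± 4.32 FPKM (SD, n = 3) at 0, 4 and 6 µM. Its vehicle libraries stood at 94.7, 54.0 and 67.6 FPKM, with replicate 1 the highest. MRPL49 was listed at 58.0, 39.5 and 41.4 FPKM at 0 µM, 41.7, 34.2 and 47.5 FPKM at 4 µM, and 37.9, 24.5 and 35.3 FPKM at 6 µM. In that gene the 0 and 6 µM groups did not overlap, and the log2 difference was -0.50 (SE 0.22, limma adjusted p = 0.294).

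The 3 genes of the S18 family did not lie in 1 direction. MRPS18A, the copy built into the large subunit, was listed at 73.7, 65.0 and 63.8 FPKM at 0 µM, 82.5, 70.7 and 81.5 FPKM at 4 µM, and 74.8, 91.8 and 78.7 FPKM at 6 µM. MRPS18B (small subunit) was listed at 88.2, 86.1 and 118 FPKM, then 101, 101 and 99.0 FPKM, then 102, 93.9 and 92.2 FPKM. MRPS18C, the copy closest to the bacterial protein in place, was listed at 105, 65.9 and 81.6 FPKM, then 60.5, 83.6 and 66.3 FPKM, then 68.5, 58.7 and 49.5 FPKM. At 6 against 0 µM the log2 differences were 0.27 (SE 0.14) for MRPS18A, -0.01 (SE 0.15) for MRPS18B and -0.50 (SE 0.21) for MRPS18C, with limma adjusted p-values of 0.337, 0.992 and 0.276. Whether the copies differ from each other in this was not tested.

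The stalk of the large subunit, which recruits the elongation factors, is formed by MRPL10 and copies of MRPL12 on a base of MRPL11. MRPL10 averaged 43.5 ± 6.91, 48.5 ± 2.77 and 51.9 ± 5.60 FPKM (SD, n = 3) at 0, 4 and 6 µM, with a log2 difference at 6 µM of 0.26 (SE 0.15, limma adjusted p = 0.415). MRPL11 averaged 45.3 ± 11.1, 43.0 ± 3.70 and 46.0 ± 4.06 FPKM, with a difference of 0.04 (SE 0.18, adjusted p = 0.928). MRPL12 could not be compared, for a reason given below.

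MRPL45, which faces the inner membrane at the exit of the large subunit, averaged 34.9 ± 4.59, 39.0 ± 1.66 and 44.5 ± 9.40 FPKM (SD, n = 3) at 0, 4 and 6 µM, and its log2 difference at 6 µM was 0.33 (SE 0.17, limma adjusted p = 0.359). MRPL58, a peptidyl-tRNA hydrolase built into the large subunit that can free stalled chains, averaged 29.0 ± 3.87, 28.8 ± 2.01 and 35 ± 8.86 FPKM, with a difference of 0.24 (SE 0.20, adjusted p = 0.577). MRPL28 was one of the steadiest of the more abundant genes. Levels were 99.1, 113 and 107 FPKM at 0 µM, 111, 121 and 111 FPKM at 4 µM, and 96.2, 102 and 96.3 FPKM at 6 µM. All libraries at 6 µM lay under those at 4 µM, a log2 difference of -0.22 (SE 0.11, limma adjusted p = 0.953).

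Counting groups that did not overlap gave 13 genes higher in all 4 µM libraries than in all vehicle libraries (16.9%, where 9.92% of all genes were) and 1 lower, MRPL1 (1.30%, against 8.36%). At 6 against 0 µM there were 8 higher (10.4%, against 10.9%) and 4 lower (5.19%, against 14%). At 6 against 4 µM there were 0 higher (against 3.77%) and 6 lower (7.79%, against 7.27%). The same vehicle libraries serve both comparisons with 0 µM.

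Replicate 1 at 0 µM was often the highest library for these genes. It was the highest of the 9 libraries for 26 of the 77 (33.8%, against 22.1% of all genes tested). Of the 3 vehicle libraries it was the highest for 45 (58.4%, against 42.1%). Among the 78 cytosolic ribosomal protein genes it was the highest of the 9 for 13 (16.7%) and the highest vehicle library for 41 (52.6%). For 14 of the 77 (18.2%, against 20.5%) replicate 1 at 0 µM was also counted as the lowest of the 9 libraries. Ties at 0 were counted for the first library in order, which is this one, so both shares are too high. MRPL12, MRPL23, MRPS16 and MRPS34, at 0 here and in other libraries, are such ties. Replicate 2 at 0 µM was the lowest on balance, with a median deviation of -0.18 from the gene's mean on the log2 scale, where replicate 1 had 0.09. The 78 cytosolic ribosomal protein genes had -0.27 and 0.10 in the same libraries, and all genes tested 0.00 and 0.04. The spread within the vehicle group was thus wider than the distance between the medians of the doses. Without replicate 1 at 0 µM, the median difference of the 77 genes was 0.192 at 4 µM and 0.103 at 6 µM, where all genes gave 0.015 and -0.012, and 0 genes of the 77 were called in either comparison. Added over the 77 genes, FPKM came to 4980 to 5420 in the vehicle libraries, 5450 to 5800 at 4 µM and 5530 to 5590 at 6 µM, a sum that also carries the 6 genes listed at 0 in some libraries.

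**Figure D4:**
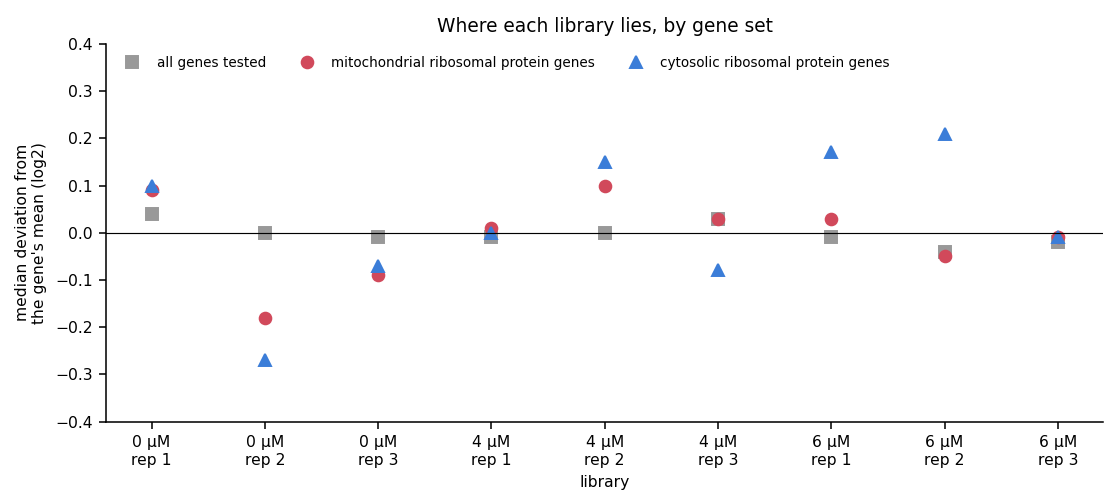
Median deviation of each library from the gene's mean over the 9 libraries (y axis, log2 of FPKM + 1), for all genes tested (grey squares), the 77 mitochondrial ribosomal protein genes (red circles) and the 78 cytosolic ribosomal protein genes (blue triangles). For the 77 genes the vehicle libraries hold both the lowest value (-0.18, replicate 2) and one of the highest (0.09, replicate 1).

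The length of the assembled model moved with the level of several genes. FPKM divides by that length, and in 36 of the 77 genes the mean model length differed by 1.5 times or more between libraries. Those 36 had a median coefficient of variation over the 9 libraries of 31.4%, and the other 41 had 15.8%. On the shared exonic bases the medians were 22% and 14.2%.

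MRPL20 (chr1:1401909-1407293, minus), a large-subunit protein with a bacterial homolog, was one such gene. The libraries held 33.4, 30 and 35.2 FPKM at 0 µM, 27.7, 30.4 and 117 FPKM at 4 µM, and 77.8, 74.6 and 94.3 FPKM at 6 µM. The 5 libraries between 27.7 and 35.2 FPKM had models of 3174 to 4059 bases, and the 4 libraries with higher values had models of 919 to 1203 bases. The log2 difference at 6 against 0 µM was 1.29 (SE 0.47, limma adjusted p = 0.215) from summed FPKM, -0.22 (adjusted p = 0.351) on the shared exonic bases and -0.37 (adjusted p = 0.255) from FPKM times length. Its direction therefore turned with the value used.

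MRPS27, a small-subunit protein with pentatricopeptide repeats, was listed at 35, 27.2 and 31.5 FPKM at 0 µM, 29.1, 25.9 and 31.4 FPKM at 4 µM, and 77.8, 27.1 and 60.4 FPKM at 6 µM. The libraries at 77.8 and 60.4 FPKM had models of 1079 and 1309 bases, and the other 7 had models of 2492 to 2581 bases. Its log2 difference at 6 against 4 µM was 0.79 (SE 0.34, limma adjusted p = 0.953) from summed FPKM and 0.05 on the shared exonic bases.

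MRPS21, a small-subunit protein with a bacterial homolog, was listed at 292, 358 and 101 FPKM at 0 µM, 431, 79.2 and 121 FPKM at 4 µM, and 484, 381 and 449 FPKM at 6 µM. The 3 low libraries had models of 491 to 572 bases and the 6 high ones models of 261 to 274 bases. At 6 against 4 µM its log2 difference was 1.43 (SE 0.65, limma adjusted p = 0.953), and on the shared exonic bases it was 1.18 (adjusted p = 0.976). From FPKM times length it was 0.78 (adjusted p = 0.957). The 3 low libraries held 149, 128 and 161 FPKM on the shared bases, against 313 to 528 FPKM in the others.

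**Figure D5:**
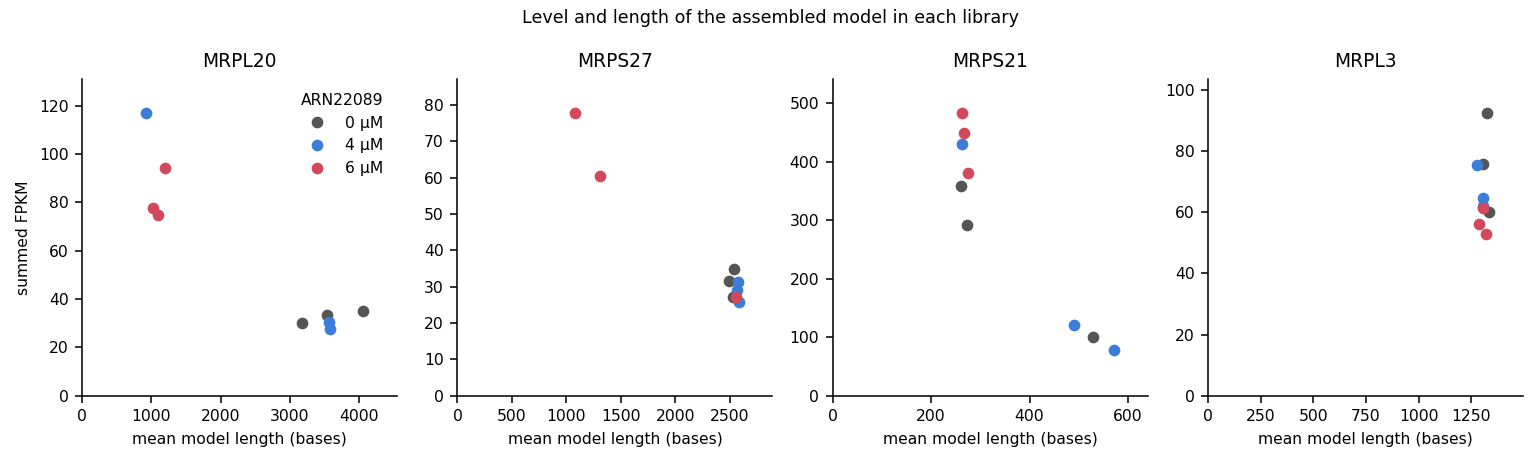
Summed FPKM (y axis, from 0) against the FPKM-weighted mean length of the assembled models in bases (x axis, from 0) for 4 genes, 1 point per library, coloured by dose. In MRPL20, MRPS27 and MRPS21 the libraries with short models hold the high values, while MRPL3 has models of 1280 to 1337 bases in every library.

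MRPL39, MRPS14 and MRPL34 had 1 or 2 libraries with a model of another length, and the last 2 genes were chosen after their values were seen. MRPL39 was at 94.7 FPKM in replicate 1 at 4 µM, with a model of 517 bases, and between 35.9 and 56.6 FPKM in the others, with models of 1035 to 1155 bases. MRPS14 was at 10.4 FPKM in replicate 3 at 0 µM and 11.2 FPKM in replicate 3 at 4 µM, with models of 2730 and 2817 bases, and between 49.9 and 96.0 FPKM elsewhere, with models of 305 to 513 bases. MRPL34 was at 25.9 FPKM in replicate 1 at 6 µM, with a model of 3475 bases, and between 72.1 and 127 FPKM elsewhere, with models of 776 to 920 bases. In each of the 3 genes the shorter model went with the higher level. The coefficient of variation of MRPL39 on the shared bases was 12.9% against 34.9% in summed FPKM, while MRPS14 had 46.3% against 51.4% and MRPL34 34.7% against 34.1%. There MRPS14 was at 10.4 and 11.1 FPKM in its 2 low libraries, and MRPL34 at 23.7 FPKM in replicate 1 at 6 µM. At 6 against 0 µM the log2 difference of MRPS14 was 0.80 from summed FPKM and 0.07 from FPKM times length, and that of MRPL34 was -0.16 and 0.62.

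For 6 genes a level of 0 was listed in at least 1 library: MRPL12, MRPL18, MRPL23, MRPL53, MRPS16 and MRPS34. In 4 of them the exons were assembled, but within a transcript that carried more introns of a neighbouring gene. MRPL53 (chr2:74471982-74472680, minus), a mitochondria-specific protein of the large subunit, was listed at 109 and 90.1 FPKM in replicates 1 and 2 at 0 µM and at 0 in the other 7 libraries, where its exons lay in CCDC142 transcripts. With all treated libraries at 0 no fold is given. Its limma adjusted p was 0.392 at 4 µM and 0.199 at 6 µM, and without replicate 3 at 0 µM it was 3.0e-05 at both doses, past the threshold. On the shared exonic bases, which the CCDC142 transcripts also cover, its log2 difference was -1.33 at 4 µM and -2.12 at 6 µM. There its values were 105, 83.4 and 8.07 FPKM at 0 µM, 18, 13.9 and 17.0 FPKM at 4 µM, and 4.91, 11.6 and 12.2 FPKM at 6 µM, so that replicate 3 at 0 µM lay with the treated libraries.

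MRPS16 (chr10:73248849-73252644, minus), a small-subunit protein with a bacterial homolog, carried its own name in 2 libraries, at 27.3 FPKM (replicate 2 at 0 µM) and 34.9 FPKM (replicate 1 at 4 µM). In the other 7 its exons lay in transcripts named DNAJC9. On the shared exonic bases it was far from 0, at 23.8, 27.3 and 22.2 FPKM at 0 µM, 28.7, 18.8 and 19.9 FPKM at 4 µM, and 16.5, 16.2 and 18.6 FPKM at 6 µM. The vehicle and 6 µM libraries did not overlap there, with a log2 difference of -0.49 (SE 0.17, limma adjusted p = 0.122). These bases also lie in the joint transcripts, so the value cannot be told apart from that of DNAJC9 where the models join.

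MRPL12 (chr17:81703367-81707517, plus), the repeated protein of the stalk, was listed at 91.3 and 165 FPKM in replicates 1 and 2 at 4 µM, at 131 FPKM in replicate 2 at 6 µM, and at 0 in the other 6 libraries. In those 6 its exons lay in HGS transcripts of 25 or 26 exons. MRPS34 was listed at 0 in replicate 1 at 0 µM and replicate 1 at 4 µM, where its exons lay in NME3 transcripts, and between 92.6 and 130 FPKM elsewhere. MRPL18 was listed at 0 in replicate 1 at 0 µM, where its shared exonic bases held 22.6 FPKM, and between 46.8 and 82.8 FPKM elsewhere. MRPL23, which sits at the exit of the peptide tunnel, was listed at 0 in 5 libraries, all 3 vehicle libraries among them, and between 70.7 and 96.3 FPKM in the other 4. No transcript lay on the exons of MRPL23 in those 5 libraries, and its shared exonic bases were also at 0. Whether its RNA was absent there cannot be told from these assemblies. The zeros of MRPL12, MRPL53, MRPS16 and MRPS34 are not a measured absence, since transcripts named for neighbouring genes covered their exons. For MRPL18 no transcript was assigned to its exons in replicate 1 at 0 µM. The value on its shared bases takes in transcripts of either strand, so whether its RNA was absent there also cannot be told.

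The other genes of mitochondrial translation were read from the same fit, and none of them was called with limma at either dose. The 5 mitochondrial ribosomal proteins with other symbols (DAP3, PTCD3, AURKAIP1, CHCHD1 and GADD45GIP1) had median differences of 0.27 (4 µM) and -0.08 (6 µM) on the log2 scale. The 14 translation factors had medians of -0.30 and -0.04, and the 31 tested assembly factors of the ribosome 0.05 and -0.01. The 11 genes of mitochondrial transcription and mRNA handling, a list that included the DNA replication genes POLG, POLG2, TWNK and SSBP1, had 0.23 and 0.19. By unadjusted p from summed FPKM, the assembly factors included 2 genes higher at 4 µM with 0 lower, and 2 higher at 6 µM with 1 lower. The other 3 lists had 0 in each direction at both doses. Over all genes tested, 6.26% were higher and 4.58% lower at 4 µM by that p, and 8.10% and 9.59% at 6 µM. On the shared exonic bases the translation factors had medians of -0.04 and 0.06, and the transcription and mRNA handling genes 0.00 and -0.07, so that both medians at 6 µM turned in sign. There, by unadjusted p, 2 translation factors were lower at 4 µM and 1 was higher at 6 µM, and 1 transcription or mRNA handling gene was higher at 4 µM, while 6 µM gave 1 higher and 2 lower. The assembly factors had medians of 0.09 and -0.01 over 32 genes there, where 2 were higher at 4 µM, and 6 µM gave 1 higher and 2 lower. Over all genes on those bases, 7.39% were higher and 7.32% lower at 4 µM by unadjusted p, and 9.62% and 15.4% at 6 µM. METTL17, which binds the small subunit during assembly, was listed at 50.7, 57.3 and 62.8 FPKM at 0 µM and 71.7, 73.8 and 68.1 FPKM at 6 µM (log2 difference 0.32, SE 0.13, limma adjusted p = 0.239). TFB1M, which methylates the small ribosomal RNA, had 0.91 (SE 0.38, adjusted p = 0.264), and MRM2, a methyltransferase of the large ribosomal RNA, -0.39 (SE 0.17, adjusted p = 0.277). OXA1L, the insertase that receives chains from the ribosome, had 0.56 (SE 0.25, adjusted p = 0.293). The elongation factor genes GUF1 and GFM1 had -0.34 (SE 0.15) and -0.67 (SE 0.33), both with an adjusted p above the threshold (0.293 and 0.328). POLRMT, the RNA polymerase of mitochondria, had 0.79 (SE 0.34, adjusted p = 0.282). It was at 54.1 FPKM in replicate 1 at 6 µM and at 23.3 and 17.5 FPKM in the other 2. No value was obtained for the 13 protein genes of mitochondrial DNA, since 0 of them received a name by the rule used.

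The list of regulators of nuclear genes for mitochondria held NRF1, GABPA, GABPB1, YY1, PPARGC1A, PPARGC1B, PPRC1, ESRRA, MYC, CLPP and LONP1. Of these, CLPP and LONP1 encode mitochondrial proteases rather than factors of transcription. GABPB1, the partner of GABPA, was listed at 12.7, 10.9 and 10.6 FPKM at 0 µM, 5.56, 8.79 and 10.6 FPKM at 4 µM, and 5.52, 8.09 and 5.70 FPKM at 6 µM. All 6 µM libraries lay under the vehicle libraries (log2 difference -0.75, SE 0.23, limma adjusted p = 0.164). ESRRA, a nuclear receptor that acts on genes for mitochondria, was listed at 21.7, 16.4 and 18.8 FPKM at 0 µM, 25.7, 24.5 and 24.5 FPKM at 4 µM, and 25.8, 24.4 and 26.2 FPKM at 6 µM (0.42 at 6 µM, SE 0.13, adjusted p = 0.167). NRF1 had -0.45 (SE 0.23, adjusted p = 0.349). Of the 10 tested genes of this list, 0 were called at either dose, with medians of 0.11 and 0.22. By unadjusted p, 2 were higher and 0 lower at 4 µM, and 1 was higher and 1 lower at 6 µM. The shares of all genes tested from summed FPKM were those given for the lists above.

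The cytosolic ribosomal protein genes, for comparison, had medians of 0.10 at 4 µM and 0.21 at 6 µM over 78 genes, with 0 called (7 higher and 1 lower by unadjusted p at 4 µM, 4 and 1 at 6 µM). By the second value 1 of the 78 was called, RPL30 at 6 against 0 µM (2.11, SE 0.32, limma adjusted p = 0.0285), named after its value was seen. In the same libraries all 10 proliferation genes were lower at 6 µM, with a median log2 difference of -1.24, and 2 of them fell by the adjusted p, MKI67 (-1.15, SE 0.17, limma adjusted p = 0.0471) and AURKB (-1.09, SE 0.17, adjusted p = 0.0471). With the replicate block their adjusted p-values were 0.0728 and 0.0733. On the shared exonic bases all 10 passed. Their part in the values of the mitochondrial ribosomal protein genes was not tested.

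The shared exonic bases gave the same count for the 77 genes. With that value 7 of 12418 genes (0.0564%) were called at 4 µM, 519 (4.18%) at 6 µM and 3 (0.0242%) at 6 against 4 µM, and 0 of the 77 in each with limma. Without an adjustment, 8 of the 77 were higher (10.4%, against 7.39%) and 0 lower (against 7.32%) at 4 µM, and 3 higher (3.90%, against 9.62%) and 5 lower (6.49%, against 15.4%) at 6 µM. At 6 against 4 µM, 1 was higher (1.30%, against 1.34%) and 1 lower (1.30%, against 3.27%) by the unadjusted p. The median log2 difference in that comparison was -0.067 over the 77 genes, where all genes gave -0.043. There 0 genes were higher in all 6 µM libraries than in all 4 µM libraries (against 3.86%) and 11 were lower (14.3%, against 8.25%), where summed FPKM gave 6. At 6 against 0 µM the 3 were MRPL2, MRPL44 and MRPS5, and the 5 were MRPL3, MRPL39, MRPL53, MRPS11 and MRPS16. The smallest adjusted p of the 77 at 6 µM was 0.0954, for MRPL2, a core protein of the peptidyl transferase region. Its values on the shared bases were 27.6, 28.8 and 27.1 FPKM at 0 µM, 30.1, 34.5 and 33 FPKM at 4 µM, and 42.3, 37.1 and 32 FPKM at 6 µM, with no overlap between vehicle and treated libraries. Its log2 difference there was 0.40 (SE 0.12) at 6 µM, and from summed FPKM it was 0.31 (SE 0.21, limma adjusted p = 0.469).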

How the data were processed

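RNA levels were measured in 9 libraries, 3 per dose. The authors deposited a separate Cufflinks assembly of each library, with an FPKM for every transcript. The submitters' processing notes list Cufflinks 2.2.1, TopHat2 2.1, SAMtools 1.9, R 4.0.3, Trimmomatic and Bowtie2 2.2.7. Those notes name GRCh37, but 732 transcripts lie on scaffolds named only in GRCh38, and all coordinates here are GRCh38. The files hold no read counts, so depth in reads is unknown, and the ratio of coverage to FPKM gave only relative depth. The number of libraries limits the precision.

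Transcripts were named in Python 3.11.15 by same-strand overlap with a RefSeq gene and shared intron lengths. A single-exon transcript needed at least 50% overlap. Of 193769 spliced transcripts, 96.05% were named. Overlapping and antisense genes are uncertain, because strand came from splice sites and a transcript that joins genes has 1 name. A gene's value was its summed FPKM. The value on shared exonic bases is the mean FPKM per base over exonic bases that 50% or more of a gene's assemblies cover. Transcripts of any name and of either strand count toward it, and it still divides by model length. Tests used limma 3.58.1 (R 4.3.3) on log2(FPKM + 1), which understates changes of low genes, for genes averaging 1 FPKM or more, with a variance trend, all 9 libraries, 6 residual degrees of freedom and two-sided p-values. The fit was checked on simulated data. The files turned out to hold FPKM inside a text column, which did not change the test.

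Same-numbered libraries share a tag in their descriptions whose meaning is not stated. Deviations from the group means correlated between -0.013 and 0.126 across genes over 9 same-numbered pairs, and between -0.080 and 0.025 over 18 others.

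Alternatives were the value on shared exonic bases, the highest transcript only, pseudocounts of 0.1, filters, TPM, median-ratio size factors, a replicate block, 2 groups only and leaving out each library. FPKM times length was added after seeing the data. The genes and lists were chosen with earlier results of these data known. Genes were named in the text for a call, for the smallest p-values (10 at 6 µM and 5 in each other comparison), for the 5 highest and 5 lowest levels, for role (stalk, decoding, exit, S18 copies, hydrolase), or for zeros with a median of at least 5 FPKM. MRPL1, MRPL2, MRPL23, MRPL34, MRPL46, MRPS11 and MRPS14 were added after their values were seen.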

Additional observations from a re-analysis of the deposited data

How the results depend on the processing

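Of 380 values (20 differences of single genes under each alternative), 374 kept their direction and their side of the threshold, 3 reversed and 3 newly passed. MRPL20 at 6 against 0 µM went from 1.29 to -0.22 on shared exonic bases and -0.37 with FPKM times length, while MRPL28 at 6 against 4 µM went from -0.22 to 0.07 with the highest transcript only. MRPL53 passed at both doses without replicate 3 at 0 µM, and MRPL20 at 6 against 0 µM without replicate 3 at 4 µM (1.29, adjusted p = 0.0362) and at 6 against 4 µM. None of the 77 genes was called under any other alternative, and leaving out libraries gave 0 to 1 called gene of the 77 in each comparison.

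Counts over all genes moved more, and the cause was not tested. At 4 against 0 µM the 11 genes became 7 on shared exonic bases and 7 with a mean of at least 5 FPKM, and leaving out a library gave 3 to 23. At 6 against 0 µM the 41 became 519 on shared exonic bases, 78 with a mean of at least 5, 16 with TPM, 69 with median-ratio size factors, 468 with FPKM times length and 12 with only 2 groups, and 15 to 65 without a library. At 6 against 4 µM the 7 became 3, 2, 4, 3, 2 and 3 under the same settings, and 2 to 14 without a library. With the replicate block the counts were 2, 4 and 1, and the block changed no call of a mitochondrial ribosomal protein gene.

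The median of the 77 genes was 0.434, 0.294 and -0.093 with TPM, where all genes moved to 0.319, 0.235 and -0.079. TPM divides by the FPKM sum of the library, which was 1061112 in replicate 3 at 0 µM, 587999 to 689699 in the other 8, 587999 to 605723 at 4 µM and 608055 to 631959 at 6 µM. Leaving out a library gave 0.005 to 0.192 at 4 against 0 µM, -0.070 to 0.103 at 6 against 0 µM and -0.063 to -0.007 at 6 against 4 µM.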
